A study of Mus musculus with 24 samples.

Results

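The genes described here encode cytokines, chemokines, their receptors and cell surface molecules of the CD nomenclature. They were taken from a table of Argonaute 2 (AGO2) peaks by gene symbol: Il, Cd or Ccl followed by a digit, or Ifn, Tnfsf, Tnfrsf, Ccr, Cxcr or Cxcl. Il2ra, Cd28, Cd69 and Tnfsf9 were left out. These 4 genes held 75 peaks and 2.19% of the reads of the table, so shares below do not describe the whole gene class. The rule gave 266 peaks in 62 genes, of 14634 peaks in 4165 genes, or 1.82% of the peaks and 2.16% of the reads. It used no measured value. It also took in Ccrn4l, Cd2ap and Cd2bp2, whose symbols share the first letters but which encode intracellular proteins.

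The data were AGO2 HITS-CLIP libraries, in which AGO2 is immunoprecipitated with the RNA crosslinked to it and the RNA is sequenced. There were 12 libraries from wild-type C57BL/6 mice and 12 from C57BL/6 mice that lack miR-155 (miR-155 KO). In both genotypes, CD4+ T cells were taken from spleen and lymph nodes with CD4 beads and cultured for 4 days with CD3 and CD28 antibodies (1 µg/mL) and IL-2 (20 U/mL), so that no resting cells were compared. The knockout is labelled at the level of the mouse, not of the T cell, and the labels give no age of the animals and do not say whether a library holds cells of 1 animal or several.

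The deposited table pools the libraries of a genotype, so each peak has 1 value for wild type and 1 for the knockout, without replicate error. These values are called reads below. They are scaled reads, computed by reversing the authors' log2 scale, and their totals over all peaks were 371088 in wild type and 374126 in the knockout. Where a pair of read values is given without a name, wild type comes first and the knockout second. The depth of single libraries is unknown. Peaks are numbered from the start of the 3′ untranslated region (3′ UTR), the stretch of a messenger RNA after the stop codon to which the table assigns every peak. The reads of a peak move with the amount of the mRNA as well as with AGO2 contact, and mRNA levels were not analysed here. In such bulk samples, fewer cells with an mRNA and less of that mRNA per cell cannot be told apart.

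Peaks were present in the 3′ UTRs of Cd3e, Cd3d, Cd3g and Cd247, which encode chains of the T cell receptor complex, and of Cd4. In all, 5 of 8 T cell markers and 1 of 2 CD4 T cell markers had peaks. No peak was listed for the 2 CD8 T cell, 3 NK cell, 6 myeloid and dendritic cell or 3 erythroid markers. Of 5 B cell markers, Cd22 had a peak, with 10.5 wild-type and 1.83 knockout reads.

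Cytokines are secreted signals by which T cells direct other cells and each other. Interleukin and interferon receptors mostly act through JAK kinases and STAT transcription factors, TNF family receptors through TRAF adaptors and NF-kB, and chemokine receptors through G proteins that steer migration. A microRNA carried by AGO2 pairs through its seed, bases 2 to 8, with complementary letters in a 3′ UTR, and usually lowers the stability or translation of that mRNA. Transcripts of this class are often short-lived, and their 3′ UTRs are known sites of control by microRNAs and by proteins that bind AU-rich elements. miR-155 is induced when lymphocytes are activated.

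Sequences of 6 microRNAs are given first, since the peaks described below hold matches to them. They are the mature forms of RefSeq (GRCm38.p6), 5′ to 3′, with the seed in capitals. Each stands for all microRNAs with the same seed, such as let-7a for 11 entries and miR-15a for 10.
miR-155-5p: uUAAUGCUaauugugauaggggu
let-7a-5p: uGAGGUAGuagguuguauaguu
miR-15a-5p: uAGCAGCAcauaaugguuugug
miR-23a-3p: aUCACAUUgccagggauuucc
miR-27a-3p: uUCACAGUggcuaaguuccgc
miR-29a-3p: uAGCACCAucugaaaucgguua

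The next 5 windows hold the miR-155 matches of these genes that can be shown, because the genotypes differ by this microRNA. Each window is 30 nt of the deposited peak sequence, 5′ to 3′ on the mRNA strand, the only strand searched, with the match in capitals. A match is called an 8mer when it pairs with bases 2 to 8 and is followed by A, a 7mer-m8 when it pairs with bases 2 to 8 alone, and a 7mer-A1 when it pairs with bases 2 to 7 and is followed by A. The Cd274 peak 13 window also shows a let-7 match, 4 nt downstream of the miR-155 match.
Il7r peak 10, 8mer: tgtggttgggtgccttAGCATTAAaattct
Cd274 peak 13, 7mer-m8 and let-7 7mer-A1: ttgtctAGCATTAcattTACCTCAtttgct
Cd274 peak 22, 7mer-A1: gtcaatgtattGCATTAAtttaataaatat
Tnfrsf26 peak 5, 7mer-m8: aacctgtcttaAGCATTAttgtacataagt
Cd47 peak 11, 7mer-m8: ttattaagcagAGCATTAtttacagaaagc
On GRCm38 the windows lie at chr15:9506557-9506586, minus strand, for Il7r, at chr19:29386359-29386388, plus strand, for Cd274 peak 13, at chr7:143608397-143608426, minus strand, for Tnfrsf26 and at chr16:49914631-49914660, plus strand, for Cd47. Each is in the annotated 3′ UTR. Cd274 peak 22 had no exact match in the transcripts searched and is given without a position.

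Matches of other microRNA families stood in several of the most-read peaks, and in peaks with more reads in the knockout. The following windows show them in the same form. The Ifngr2 window has 2 miR-23 matches whose starts are 14 nt apart, the Cd200 window a miR-26 and a miR-23 match, and the Il6st window a miR-29 and a miR-27 match that overlap.
Ccr7 peak 1, miR-15/16 7mer-m8: atccaccgaatTGCTGCTgagggaagagca
Ccr7 peak 2, let-7 8mer: cccacttataaCTACCTCAaccaaagctgt
Il7r peak 6, miR-15/16 8mer: catgattttccTGCTGCTAttatccattgg
Ifng peak 1, miR-27 7mer-m8: aattagccaagACTGTGAttgcggggttgt
Tnfrsf26 peak 6, miR-27 8mer: ccagtccaagtACTGTGAAtgctgtcatat
Tnfrsf4 peak 1, miR-29 7mer-m8: tacctgcctggTGGTGCTcctaataaacat
Ifngr2 peak 3, miR-23 7mer-m8 at both places: gtccAATGTGAtggcttaAATGTGAgaccc
Cd200 peak 1, miR-26 8mer and miR-23 7mer-A1: tggtcTACTTGAAtctgATGTGAAagaaaa
Il6st peak 14, miR-29 7mer-m8 and miR-27 7mer-A1: atcagacagTGGTGCTGTGAAcgttgcagt
Their positions on GRCm38 are chr11:99144855-99144884 and chr11:99144774-99144803 (both minus strand) for Ccr7, chr15:9506922-9506951 (minus) for Il7r, chr10:118445513-118445542 (plus) for Ifng and chr7:143608074-143608103 (minus) for Tnfrsf26. The others are at chr4:156016556-156016585 (plus) for Tnfrsf4, chr16:91563389-91563418 (plus) for Ifngr2, chr16:45383388-45383417 (minus) for Cd200 and chr13:112506442-112506471 (plus) for Il6st. All lie in annotated 3′ UTRs.

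AGO2 reads were concentrated in a few of these mRNAs. Ccr7, Cd274 and Il7r together held 33.0% of the reads of the 62 genes, and the 10 most-read genes held 66.8%. At the other end 28 genes held fewer than 50 reads. The median gene held 82.0 reads over both genotypes, against 44.9 for all genes of the table, and 64.8 reads per 100 nt of peak, against 50.1. Ccr7, Cd274, Il7r and Tnfrsf1a were among the 100 genes with the most reads in the table. The median peak held 22.5 reads (quartiles 9.0 and 56.2), against 17.0 (7.90 and 40.9) for all peaks.

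Summed over the 266 peaks, wild type held 8029 reads and the knockout 8100, a log2 ratio of -0.01, which was also the ratio of the whole table. Single genes went both ways: 34 of 62 held more reads in the knockout (54.8%), against 43.0% of all genes. Among the 34 genes with at least 50 reads, 19 held more in the knockout (55.9%, against 47.5% of all such genes) and 15 more in wild type. Only 1 of the 34 was more than 2-fold higher in the knockout (4.12% of all such genes), Ifngr2, and only 1 was more than 2-fold higher in wild type (6.50% of all such genes), Tnfsf11. The median peak had a log2 ratio of 0.03, against 0.20 for all peaks of the table. No wild-type reads were listed at 22 peaks (8.27%, against 7.87% of all peaks) and no knockout reads at 35 (13.2%, against 16.6%).

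**Figure D1:**
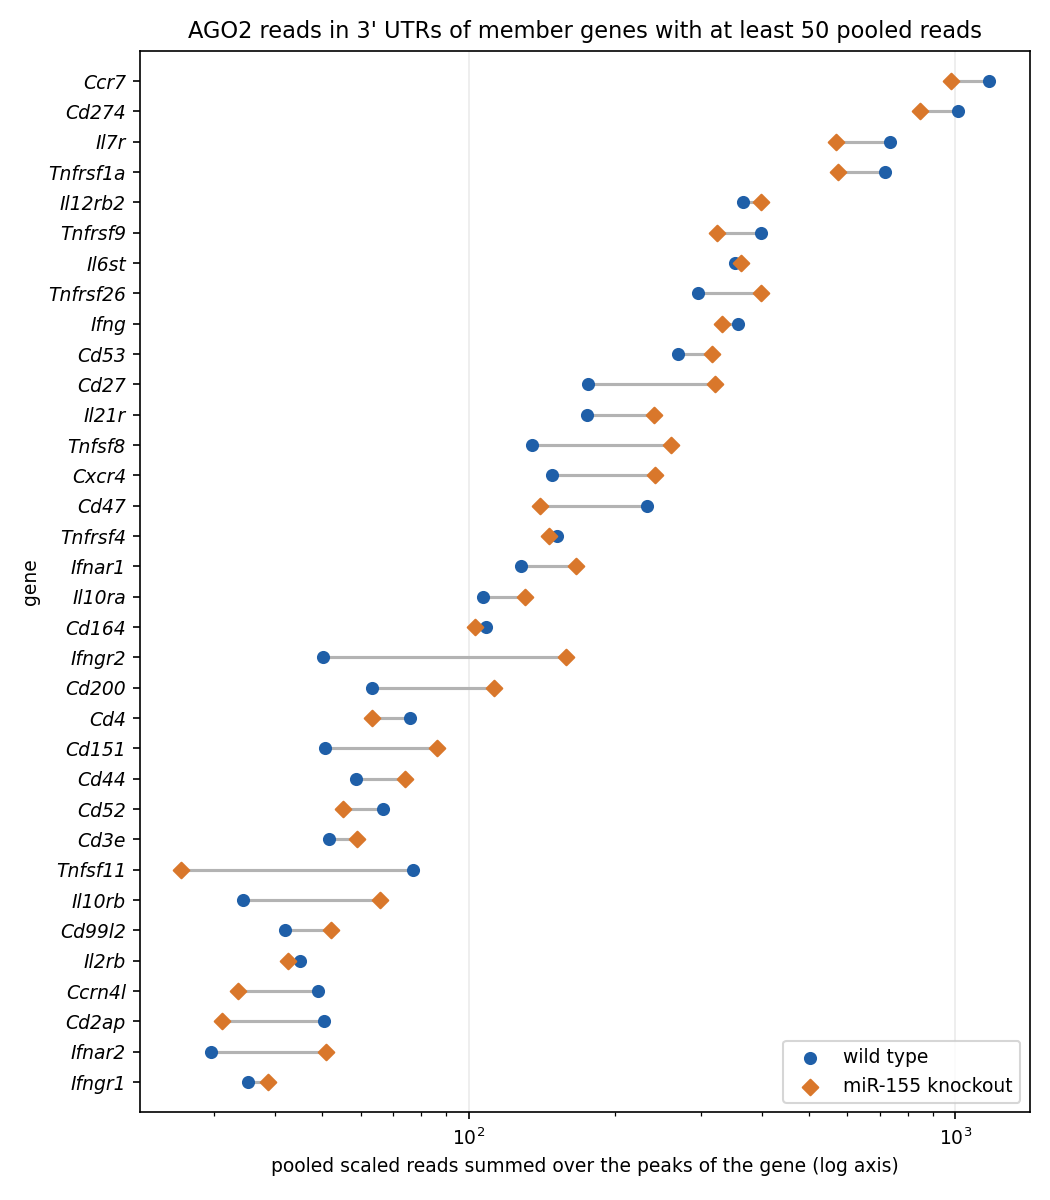
Pooled scaled reads per gene (log axis), summed over the peaks of each gene, in wild type (blue circles) and in the miR-155 knockout (orange diamonds), for the 34 genes with at least 50 reads. Each symbol is 1 pooled value without an error; the widest gaps belong to Ifngr2 (50.1 and 158 reads) and Tnfsf11 (76.9 and 25.6).

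No member peak was called lower in the knockout. With Benjamini-Hochberg adjustment of the authors' p-values over the whole table and a threshold of 0.05, 0 of 266 peaks were lower, where 0.574% of all peaks were, and 1 was higher, where 0.0273% were. At an unadjusted p below 0.05 in the authors' deposited table, 4 member peaks were lower in the knockout (2.72% of all peaks were) and 5 were higher (1.48% of all peaks were), or 9 in either direction (4.20% of all peaks). The 4 lower peaks were peaks 10 and 11 of Il7r and peaks 15 and 22 of Cd274. The 5 higher peaks lay in Tnfrsf8, Ifngr2, Cd274, Tnfsf8 and Tnfrsf26. Of the member peaks, 144 held at least the 17.6 reads of the least-read called peak of the table. The sources used here do not give the test on which these p-values rest, so the spread between libraries behind them is unknown.

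The called peak was peak 1 of Tnfrsf8, which encodes CD30, a TNF family receptor of activated lymphocytes. It was listed at 0 in wild type and at 26.7 reads without miR-155 (p = 2.02e-05 in the authors' deposited table, Benjamini-Hochberg adjusted p = 0.00455). The peak begins 1150 nt into the 3′ UTR, at chr4:145268143-145268182 of GRCm38, in exon 13 of 13. Peak 2 of the gene was also listed at 0 in wild type, with 8.89 knockout reads. These are the only peaks of the gene in the table. Peak 1 held no match to any of the 16 microRNA families searched. With the stricter Bonferroni adjustment over all peaks it was not called.

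**Figure D2:**
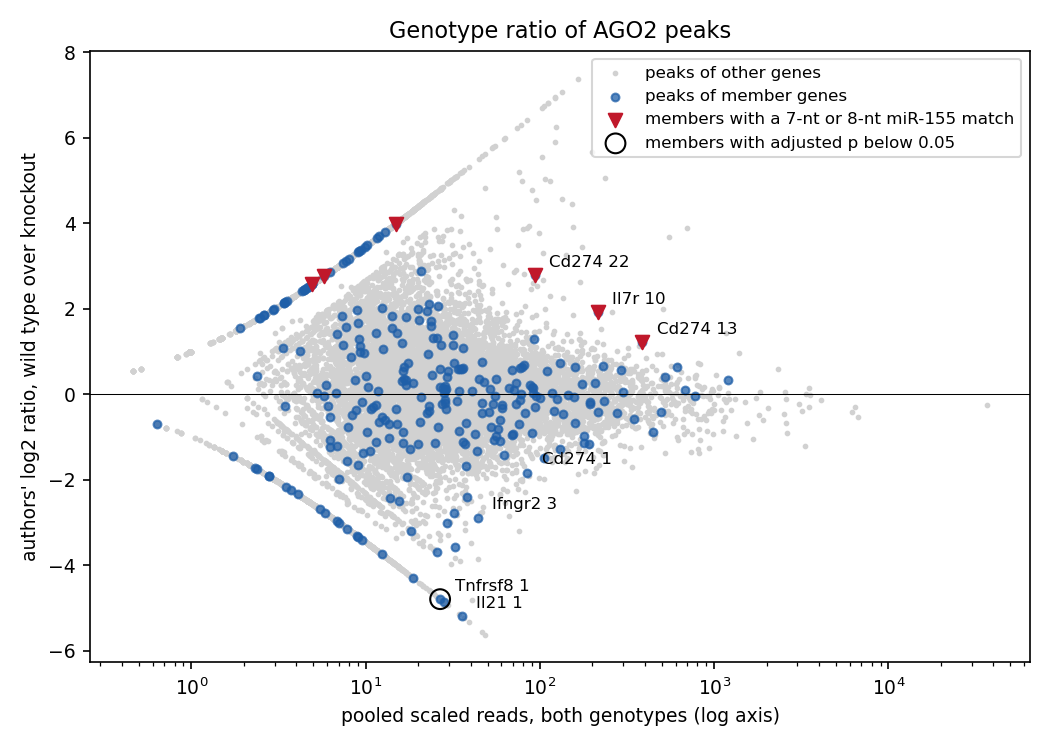
Log2 ratio of wild type over knockout in the authors' deposited table (linear axis) against pooled scaled reads of both genotypes (log axis), for peaks of the genes described here (blue), those with a 7-nt or 8-nt miR-155 match (red triangles), the called peak (circled) and all other peaks (grey). All 6 triangles lie above 0; the diagonal edges are peaks listed at 0 in 1 genotype.

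Interleukin receptors held 22.9% of the reads, with 1856 wild-type and 1833 knockout reads over 66 peaks in 10 genes. Il7r, the receptor chain for the survival cytokine IL-7, led them with 735 wild-type and 569 knockout reads over 13 peaks. Il12rb2, the signalling chain of the IL-12 receptor that serves type 1 helper responses, held 367 and 399. Il6st, which encodes the shared signal transducer gp130, held 352 and 362 over 16 peaks, with 11.0 and 25.9 at peak 14, where the miR-29 and miR-27 matches overlap. Il21r, the receptor of IL-21, held 175 and 240. The log2 ratios of these 4 genes, wild type over knockout, ranged from -0.46 for Il21r to 0.37 for Il7r. Of the other 6, those with reads in both genotypes ranged from -0.93 for Il10rb to 1.30 for Il17ra, which held 26.0 reads over both genotypes.

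Some single peaks of these receptors differed more between the genotypes than the gene totals, and none passed the test. Peak 5 of Il12rb2, with a miR-142-3p 7mer-m8 match, held 55.0 wild-type and 123 knockout reads, with p = 0.485 in the authors' deposited table. Peak 8, with a miR-19 8mer, held 76.8 and 79.8, and peak 11, with 2 ATTTA pentamers, held 114 and 94.1. In Il21r, peak 4 with a miR-30 8mer held 118 wild-type and 160 knockout reads. Peak 1 of the same gene, with a miR-24 match, held 0.974 and 24.7 (p = 0.0747 in the authors' deposited table). Il2rb, the beta chain shared by the IL-2 and IL-15 receptors, held nearly equal totals of 45.1 and 42.6, yet its peak 1 was listed at 0 in wild type and at 28.3 in the knockout. Without that peak, its log2 ratio was 1.65. Il10ra and Il10rb, the chains of the IL-10 receptor, held 107 and 131 reads, and 34.5 and 65.6. Of the 4 Il10rb peaks, the sequences of peaks 1 and 2 also matched the gene model Gm21970.

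The interleukins themselves held a small share of the reads, in few peaks. The 3 genes, with 1 peak each, held 16.3 wild-type and 64.5 knockout reads, or 0.50% of the total. Per peak they were not low, with a median of 32.2 reads over both genotypes, against 17.0 for all peaks. Il21, a cytokine of follicular helper cells, was listed at 0 in wild type and at 35.6 in the knockout. Its peak holds a miR-29 8mer and a miR-15/16 7mer-m8 that runs past the end of the peak, and had p = 0.151 in the authors' deposited table. Il13, a type 2 cytokine, held 3.33 and 28.8 reads at a peak with a let-7 8mer. Il11 held 12.9 wild-type reads and none were listed for the knockout. None of the 3 passed the test.

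TNF family receptors held 1757 wild-type and 1827 knockout reads over 33 peaks in 9 genes. Tnfrsf1a, which encodes TNF receptor 1, held 716 and 575 reads, of which 93.0% lay in peak 1 (670 and 530). It had the most reads per 100 nt of peak of the 62 genes, 1721. No family match was found in either of its 2 peaks. Tnfrsf9, which encodes the costimulatory receptor CD137, held 398 and 325, with 72.5% in peak 2 (299 and 225), which also held no family match. In the same 3′ UTR, peak 6 had 1.67 wild-type and 30.7 knockout reads (p = 0.671 in the authors' deposited table). Without peak 2 the gene's log2 ratio turned from 0.30 to -0.01. Tnfrsf4, the costimulatory receptor OX40, held 152 and 146 reads in 1 peak, whose miR-29 match is shown above.

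Tnfrsf26, a further receptor gene of the family, held 296 wild-type and 398 knockout reads over 11 peaks. Its peak 6, at the miR-27 8mer shown above, held 210 and 283. Its peak 1 held 0.991 and 17.1 (p = 0.0116 in the authors' deposited table, Benjamini-Hochberg adjusted p = 0.624). Cd27, a TNF family costimulatory receptor whose symbol places it among the CD genes, held 176 and 320, most of them in peak 2 (155 and 289).

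TNF family ligands held 224 wild-type and 321 knockout reads over 19 peaks in 3 genes, and the genes did not go the same way. Tnfsf8, the ligand of CD30, held 135 and 261 reads. Its peak 6 had 2.47 and 27.0 (p = 0.0109 in the authors' deposited table, Benjamini-Hochberg adjusted p = 0.606). Tnfsf14, or LIGHT, held 11.9 and 34.8. Tnfsf11, which encodes RANKL, held 76.9 wild-type and 25.6 knockout reads, with more reads in wild type at each of its 7 peaks. The reads per peak were low, 9.42 and 0 at peak 1, 21.5 and 13.9 at peak 2 and 18.7 and 5.01 at peak 3. Peak 3 holds a miR-17 7mer-m8, and no peak of the gene holds a miR-155 match. The smallest p of Tnfsf11 in the authors' deposited table was 0.0952.

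Chemokine receptors held 15.9% of the reads in 3 genes. Ccr7, which guides T cells into lymph nodes, had the most reads of the 62 genes, 1175 in wild type and 978 in the knockout. Its first 3 peaks, which begin 69, 134 and 195 nt into the 3′ UTR, held 380 and 395, 374 and 241, and 175 and 118 reads. Peak 1 lies at a miR-15/16 match and peak 2 at a let-7 8mer, both shown above. Neither peak 1 (p = 0.892) nor peak 2 (p = 0.197) passed the test in the authors' deposited table. Cxcr4, the receptor of CXCL12, held 148 and 242 over its peaks, none of which held a family match, with 59.8 and 119 at peak 4.

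Chemokines held 32.5 and 48.2 reads over 6 peaks in 5 genes. Ccl3 held 7.80 wild-type and 18.6 knockout reads, Ccl22 held 7.40 and 17.5, and Ccl4 held 5.48 and 9.56. Ccl5 went the other way, with 9.16 in wild type and a listed 0 in the knockout. Ccl1 held 2.66 and 2.60. These low totals do not allow a difference to be read.

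Interferon gamma and the interferon receptors held 601 wild-type and 745 knockout reads over 17 peaks in 5 genes. Ifng, the defining cytokine of type 1 helper cells, held 358 and 331, of which 98.7% lay in peak 1 (353 and 327), at the miR-27 match shown above. All 4 receptor genes held more reads in the knockout, though no peak of theirs passed the test. Ifnar1 and Ifnar2, the chains of the type I interferon receptor, held 128 and 167, and 29.5 and 50.8. Ifngr1, the ligand-binding chain of the interferon gamma receptor, held 35.3 and 38.7.

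Ifngr2, the signalling chain of that receptor, held 50.1 wild-type and 158 knockout reads, a log2 ratio of -1.66, the lowest among the 34 genes with at least 50 reads. All 3 of its peaks leaned the same way, with 27.3 and 78.1 reads at peak 1, 18.4 and 40.6 at peak 2, and 4.47 and 39.5 at peak 3. Peak 3, with the pair of miR-23 matches, had a log2 ratio of -2.89 and p = 0.00104 in the authors' deposited table. Its Benjamini-Hochberg adjusted p was 0.131, above the threshold. Peak 2 holds a miR-29 match and peak 1 none.

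The T cell receptor, coreceptor and costimulation genes of the CD series held 133 wild-type and 134 knockout reads over 12 peaks in 6 genes. This group is without Cd28, which the rule left out, and without Cd27, counted with the TNF family receptors. Its median peak held 19.0 reads, against 17.0 for all peaks. The median gene of the group held only 6.22 reads, against 44.9 for all genes, and 21.3 reads per 100 nt of peak, against 50.1. Cd4, the coreceptor used to purify the cells, held 75.9 and 63.3. Cd3e held 51.7 and 58.9, and turned to a log2 ratio of 0.31 without its most-read peak. Cd247, the zeta chain, held 0.822 and 6.18, and Cd3g and Cd3d were listed at 0 in wild type, with 5.43 and 0.634 in the knockout.

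Other CD genes held 1982 wild-type and 1829 knockout reads over 87 peaks in 15 genes. Cd274, which encodes the inhibitory ligand PD-L1, had 22 peaks, the most of the 62 genes, and 1012 and 848 reads. Cd53, a tetraspanin of leukocytes, held 270 and 316. Cd47, which protects cells from phagocytosis, held 233 and 140. Cd164, a sialomucin, held 109 and 103. Cd200, another inhibitory ligand, held 63.4 and 113, and its peak 1, at the miR-26 and miR-23 matches shown above, held 37.5 and 92.4 (p = 0.444 in the authors' deposited table). Without peak 1 the log2 ratio of Cd200 turned from -0.83 to 0.33. Peak 4 of the gene held 18.4 wild-type and 4.06 knockout reads. Further small peaks with more reads in wild type were peak 20 of Cd274 (19.0 and 1.74), peak 3 of Cd47 (21.6 and 4.46) and peak 7 of Cd164 (16.1 and 4.18). None of these passed the test.

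The 6 peaks with a 7-nt or 8-nt miR-155 match, in 5 genes, all held more reads in wild type, and none was called. They made up 2.26% of the member peaks, against 1.81% of all peaks. Their median log2 ratio in the authors' deposited table was 2.66, beside 3.16 for the 265 peaks with such a match in the whole table, of which 247 held more reads in wild type and 59 were called. The most-read of the 6 lay in Il7r and Cd274. The other peaks, Tnfrsf26 peak 5 (14.9 reads), Cd47 peak 11 (5.78) and Cd226 peak 1 (4.92), were listed at 0 in the knockout. The ratios of these low peaks rest on the pseudocount, and the median of 2.66 lies between those of Cd226 (2.57) and Cd47 (2.76). The ratios were 1.21 at Cd274 peak 13, 1.92 at Il7r peak 10 and 2.78 at Cd274 peak 22. Cd226 encodes an activating receptor of T and NK cells.

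Il7r peak 10, at the 8mer shown above, held 170 wild-type and 44.4 knockout reads. Its log2 ratio in the authors' deposited table was 1.92, with p = 0.00584 and a Benjamini-Hochberg adjusted p of 0.430. It took 23.2% of the reads of the gene in wild type and 7.80% in the knockout. The next peak, 11, with a 6-nt miR-155 match and a miR-15/16 7mer-A1, held 142 and 89.2 (p = 0.0472 in the authors' deposited table, Benjamini-Hochberg adjusted p = 1.00). The other 12 peaks of Il7r held 565 and 524 reads, a log2 ratio of 0.11 against 0.37 for the whole gene. Without the peak of the 6-nt match too, they held 423 and 435.

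The other 8mers in Il7r did not share this lean. Peak 6, at the miR-15/16 8mer shown above, held 58.3 wild-type and 132 knockout reads (p = 0.333 in the authors' deposited table). Peak 2, with a miR-19 8mer, held 48.6 and 51.9, and peak 13, with a miR-27 8mer, held 89.7 and 105. The 3′ UTR of Il7r therefore held an 8mer of each of 4 families in separate peaks. Among these 8mers, only that of miR-155 had more reads in wild type. The lean was not confined to peaks with a miR-155 match, however. Peaks 7 and 8, without a match to any family searched, held 66.2 and 26.6, and 97.1 and 62.4. Of the other peaks without a match, peaks 1, 3, 4 and 9 held more reads in wild type. Peaks 5 and 12 held more in the knockout.

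Cd274 had 2 peaks with a miR-155 match. Peak 13, which also holds the let-7 match, had 270 wild-type and 116 knockout reads, with a log2 ratio of 1.21 and p = 0.249 in the authors' deposited table. Peak 22, the last one in the 3′ UTR, had 82.3 and 11.1, with a log2 ratio of 2.78, p = 0.00975 and a Benjamini-Hochberg adjusted p of 0.576 from the authors' deposited table. The pair took 34.8% of the reads of the gene in wild type and 15.0% in the knockout. The other 20 peaks held 659 wild-type and 721 knockout reads, a log2 ratio of -0.13 against 0.25 for the whole gene.

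Of the other Cd274 peaks, 2 had an unadjusted p below 0.05 and neither passed after adjustment. Peak 1, just after the stop codon and with a miR-27 7mer-A1, held 17.99 wild-type and 66.8 knockout reads (log2 ratio -1.84, p = 0.00263 in the authors' deposited table, Benjamini-Hochberg adjusted p = 0.247). Peak 15 held 19.4 and 3.72 (p = 0.0211 in the authors' deposited table, Benjamini-Hochberg adjusted p = 0.832). Peak 21, with a miR-17 8mer and next to peak 22, held 139 and 209. Peaks 6 and 17, each with a miR-15/16 match, held 90.5 and 103, and 94.4 and 79.9.

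**Figure D3:**
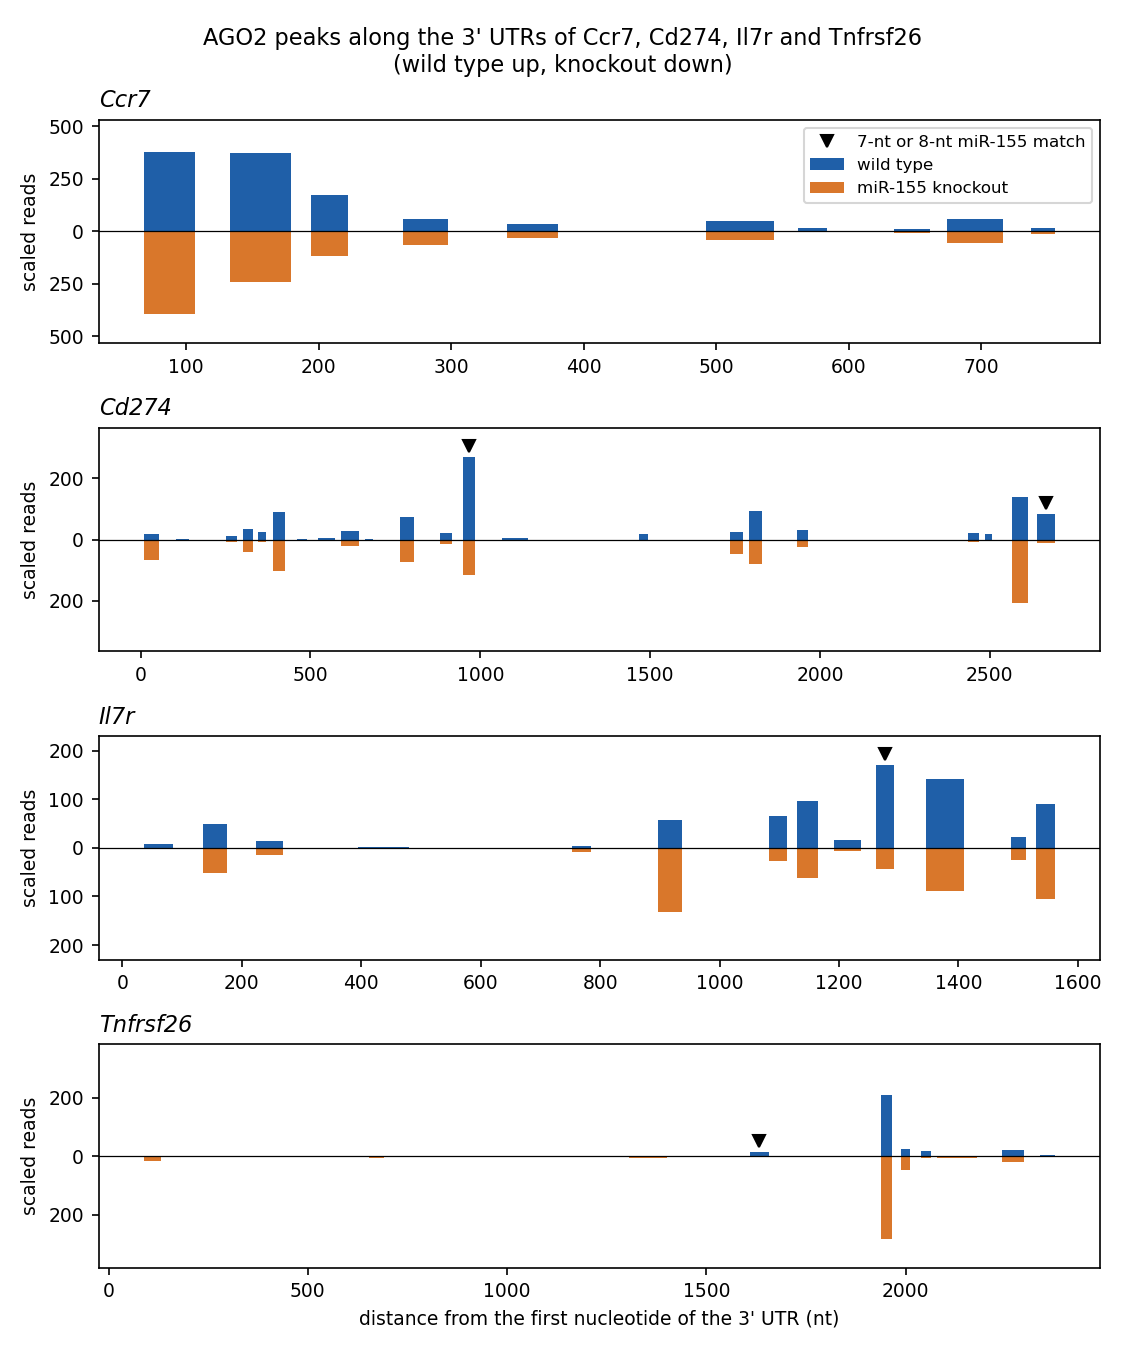
Pooled scaled reads of each peak of Ccr7, Cd274, Il7r and Tnfrsf26 by distance from the 3′ UTR start (nt), wild type upward and knockout downward, on linear axes that differ between panels. Triangles mark peaks with a 7-nt or 8-nt miR-155 match; at the marked peaks of Il7r (170 and 44.4) and Cd274 (270 and 116, 82.3 and 11.1) the bar is longer upward.

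Matches to any of the 16 families were found in 75 of the 266 peaks (28.2%), against 35.3% of all peaks, and these 75 held 47.4% of the member reads, against 45.1% in the whole table. miR-27 had the most member peaks, 11 (4.14%, against 3.59% of all peaks), among them those of Ifng, Il7r and Tnfrsf26. miR-15/16 had 10 (3.76%, against 4.58%), which held 1748 reads, the most of any family. miR-29 had 8 (3.01%, against 2.56%) and miR-17 had 6 (2.26%, against 3.71%). miR-181 and miR-146 had 1 each. Matches to at least 2 families stood in 7 peaks (2.63%, against 4.39%). These shares are descriptions of sequence, and which microRNA AGO2 carried at a peak was not measured.

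The 4 member peaks with a miR-23 match, in Ifngr2, Ifngr1, Cd53 and Cd200, all held more reads in the knockout, 84.9 in wild type and 203 in the knockout together. Their median log2 ratio in the authors' deposited table was -0.99, beside 0.04 for all peaks of the table with a miR-23 match. Of the 6 peaks with a miR-142-3p match, 5 held more reads in the knockout (median -0.24, beside -0.01 for all peaks with the match), as did 6 of the 11 with a miR-27 match (-0.22, beside 0.04) and 6 of the 10 with a miR-15/16 match (-0.05, beside 0.04). Wild type was higher at 5 of the 6 peaks with a miR-17 match (0.25, beside 0.20) and at 5 of the 8 with a miR-29 match (0.07, beside -0.04). For miR-19, miR-25/92, let-7 and miR-30, with 5 member peaks each, the knockout was higher at 3. Their medians were -0.05 (beside 0.17), -0.86 (beside 0.19), -0.17 (beside 0.18) and -0.03 (beside 0.22). The let-7 peaks together held 663 wild-type and 411 knockout reads. miR-23 had fewer member peaks than any of these other families. None of these peaks passed the test.

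**Figure D4:**
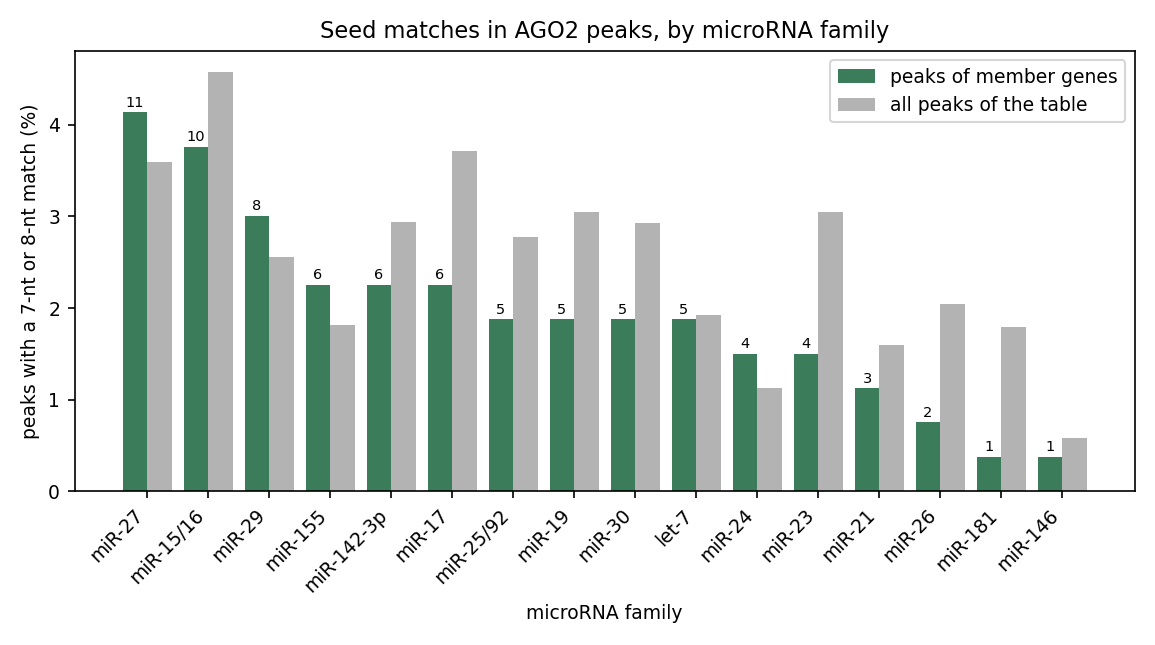
Percentage of peaks with a 7-nt or 8-nt match to each of 16 microRNA families, for the peaks of the genes described here (green, with the number of peaks above the bar) and for all peaks of the table (grey). The green bar is the higher one for miR-27, miR-29, miR-155 and miR-24.

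Among the 36 member peaks with at least 100 reads, 19 held a family match and 6 differed by more than 2-fold between the genotypes, where 10.3% of all such peaks did. Wild type was higher at the miR-155 peaks of Il7r and Cd274 (peaks 10 and 13). The knockout was higher at peak 1 of Cd200, peak 1 of Ifngr2, peak 5 of Il12rb2 and peak 6 of Il7r. None of the 6 was called.

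The median peak began 686 nt into the 3′ UTR, against 880 in the whole table, and 18.8% began within 200 nt, against 15.2%. Their median GC content was 39.6%, against 36.8%. The pentamer ATTTA, the core of AU-rich elements, was searched on the mRNA strand and found in 25 peaks (9.40%), against 11.6% of all peaks. Among these were Cd274 peaks 13, 17 and 22, of which peaks 17 and 22 held 2 copies, and Il12rb2 peak 11. The pentamer was absent from the peaks of TNF family receptors (33 peaks), chemokines (6) and interferons and their receptors (17). It was also absent from those of the T cell receptor, coreceptor and costimulation genes (12). A single peak was listed for 23 of the genes (37.1%), against 40.8% of all genes.

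Signalling genes downstream of these receptors were counted in the same way. Of 26 genes of the JAK, STAT and SOCS families and their phosphatases and PIAS inhibitors, 21 had peaks, 107 in all. None of the 21 had a peak called lower or higher at a Benjamini-Hochberg adjusted p below 0.05, where 1.90% and 0.0960% of all genes did, and 1 of their peaks was lower (0.935%) and 2 were higher (1.87%) at an unadjusted p below 0.05, beside 2.72% and 1.48% of all peaks. Of 30 TRAF, NF-kB and adaptor genes, 14 had peaks, 56 in all. Among these Map3k14, which encodes the NF-kB-inducing kinase NIK, had a peak called lower in the knockout, or 7.14% of the 14 genes, and none had one called higher. This was peak 2, with 101 wild-type and 1.21 knockout reads and a miR-155 8mer (Benjamini-Hochberg adjusted p = 0.000436). In this list 6 peaks were lower (10.7%) and 1 was higher (1.79%) at an unadjusted p below 0.05, beside the same 2.72% and 1.48%. The median log2 ratio in the authors' deposited table was -0.11 for the first list and 0.25 for the second, beside 0.20 for all peaks.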

How the data were processed

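AGO2 HITS-CLIP reads of 12 wild-type and 12 miR-155 knockout libraries were processed by the authors. The submitters' processing notes name Bowtie 0.12.7 and the build mm9. How peaks were called, scaled and tested, and whether duplicates were removed, was not given in the sources used here. In each genotype 6 libraries carried each 3′ linker, which the pooled table does not separate.

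Per the file headers, the deposited log2 values are reads per genotype and their ratio, and the deposited p-value is for differential binding. Peak positions and sequences were deposited beside them. Reads were computed as 2 to the power of the value, minus the pseudocount of 1, and the log2 ratios of genes come from these reads. The authors' deposited log2 ratios of peaks keep the pseudocount, which understates changes of low peaks. For Cd247, with 1 peak, the ratio was -1.98 as deposited and -2.91 from the reads. No filter on low values was applied to calls. The p-values were Benjamini-Hochberg adjusted over all 14634 peaks, with a threshold of 0.05; a positive ratio means lower in the knockout. Since libraries are pooled, p-values could not be recomputed, and no interval is given. A fold against a genotype listed at 0 is not given.

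The members and all lists were chosen with earlier results of these data known. The text names called peaks, peaks with a miR-155 match or an unadjusted p below 0.05, the 10 most-read genes, up to 4 per role and up to 3 per microRNA family, and the 5 highest and 5 lowest ratios at 20 or more reads; other peaks of these genes, those with at least 100 reads and more than 2-fold apart, and Tnfsf11, Il10rb and Il17ra by their ratio were named after their values were seen. A few of the genes under this rule are not reported here. Site matches used RefSeq seeds, and miR-150-5p was not searched. The deposited sequences generally hold flanks of 6 nt on each side of the peak. A match that lies partly or wholly in a flank was counted for the peak. Of 266 sequences, 253 (95.1%) matched GENCODE M21 transcripts of the gene exactly, all in 3′ UTRs, on GRCm38 rather than mm9. The site search and the adjustment were tested on simulated data. Python 3.11.15, NumPy 2.4.6, pandas 2.3.3, SciPy 1.17.1 and matplotlib 3.10.9 were used.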

Additional observations from a re-analysis of the deposited data

How the results depend on the processing

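The count of 0 member peaks lower in the knockout held at an adjusted p threshold of 0.1. It also held over peaks with at least 10 reads or with reads in both genotypes. A threshold of 0.01 and the Bonferroni adjustment are stricter, so the count of 0 there was fixed in advance. The 1 higher peak, in Tnfrsf8, was lost (0 peaks) under the Bonferroni adjustment, and also (0 peaks) over peaks with reads in both genotypes, which removes this peak by construction. The log2 ratio of summed member reads, -0.01, became -0.028 over peaks with at least 10 reads, -0.00097 with equal totals, -0.055 without Ccr7 and -0.0198 without Ccrn4l, Cd2ap and Cd2bp2. The share of member peaks with a 7-nt or 8-nt miR-155 match, 2.26%, became 1.88% when the flanks were left out. The share of peaks with ATTTA fell from 9.40% to 1.504% when 2 pentamers were required. Pathway genes with a called peak went from 1 (Map3k14) to 3 at a threshold of 0.1. Of 34 named genes with reads in both genotypes, 0 changed sign with equal totals. Of the 25 with another peak, 4 changed sign without their most-read peak: Cd200 (0.33), Cd3e (0.31), Il6st (0.02) and Tnfrsf9 (-0.01). No paired analysis was possible because the table pools the libraries of each genotype; for the same reason no library could be left out. Pooling and unknown depth limit every comparison to single values.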
